A study of Mus musculus with 12 samples.

Results

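Expression of 7 genes of the postsynaptic scaffold, Shank2, Dlgap1, Dlgap2, Homer1, Homer2, Sipa1l1 and Lrrtm4, was examined in RNA-seq libraries of 12 mouse brains. The genes were chosen by the function of their proteins, with earlier results of these data known. The count table of the series lists 15928 genes without names. A gene was named where its mean count, after division by library size factors, matched a single mean in the study's table of DESeq2 results within a relative difference of 1e-09. By this rule 1349 of the 1684 genes in that table were named, and all 7 scaffold genes were among them. That table is ordered by p-values from these same mice, and 1097 of the 1349 named genes (81.3%) had an unadjusted p under 0.05 between the genotypes here. Directions between the genotypes are therefore given as descriptions of genes already selected on them.

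The libraries were made from total RNA of brain sections that held dorsal hippocampus and cortex. There were 5 wild-type (Wt) mice, 3 labelled female and 2 labelled male, and 7 Tg2576 (Tg) mice, 4 labelled female and 3 labelled male. Tg2576 mice express human APP with the Swedish mutation from a transgene under the hamster prion protein promoter, in addition to their own App gene, so the model overproduces the precursor protein from an added gene copy. The labels give every mouse an age of 11 months, the study's methods give a range that starts there, and all mice were killed under isoflurane with no other treatment named. Libraries were prepared and sequenced in 2 batches, the first with 3 Wt and 5 Tg mice and the second with 2 Wt females and 2 Tg males. Within batch 2, sex and genotype cannot be told apart. Between 15768135 and 20996174 reads were counted per library. Expression is given as CPM, counts scaled to a common library total, after TMM normalization, which corrects the totals for differences in composition.

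The postsynaptic density is a protein layer under the membrane of excitatory synapses, facing the site of transmitter release. In it, membrane-associated guanylate kinases hold glutamate receptors and bind the Dlgap proteins, the Dlgap proteins bind Shank proteins, and Shank proteins bind Homer proteins, which reach the metabotropic glutamate receptors and the calcium stores of the spine. Hippocampal and cortical pyramidal neurons carry most of their excitatory synapses on dendritic spines built around this scaffold.

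Labels were compared with the data before the scaffold genes were described. App, which the transgene and the mouse gene may both feed because the counting is not stated to separate them, was between 1214 and 1496 CPM in the Wt mice and between 2991 and 5727 CPM in the Tg mice. The genotype labels and App levels went together in every mouse. Xist, the RNA of the inactive X chromosome, was between 149.5 and 233.4 CPM in the 7 mice labelled female and at most 0.0563 CPM in 4 of the 5 mice labelled male. In the library labelled Wt male 41 Xist was at 198.9 CPM, inside the range of the females. The library labelled mouse 41 therefore goes against its sex label. It was kept under that label, and values without it are given beside the main comparisons and correlations. The labels give the tissue only as brain, and the study's methods name hippocampus and cortex. Of 15 markers of glutamatergic neurons of cortex and hippocampus, 7 were named. Their most abundant gene, Slc17a7, the vesicular glutamate transporter of these neurons, was at 948 CPM or more in all libraries. That level does not show which other regions a section held, and markers of other tissues are given below.

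The Dlgap proteins form the layer between the receptor-anchoring kinases and the Shank proteins. Dlgap1 (chr17:69969073-70821413 of GRCm38, + strand, with 19 exons over 852 kb) was at 538, 735, 562, 503 and 649 CPM in Wt mice 12, 41, 79, 80 and 95, and at 419 (mouse 91), 520.3 (median) and 579.6 CPM (mouse 67) at the lowest, middle and highest of the Tg mice. Mice 41 and 95, the Wt pair labelled male, were above all Tg mice, the other 3 Wt mice lay inside the Tg range, and 1 Tg mouse lay below all Wt mice. Dlgap2 (chr8:14095865-14847680, + strand, 22 exons) was at 98.7, 138, 72.1, 64.4 and 97.1 CPM in the same order of Wt mice, and at 64.3 (mouse 91), 81.2 and 106 CPM (mouse 67) in Tg mice. The genotypes overlapped almost wholly for Dlgap2, with mouse 41 as the 1 Wt mouse above all Tg mice. The same Tg mice, 91 and 67, were lowest and highest for both Dlgap genes.

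Shank2, the scaffold that links the Dlgap layer to Homer and to the actin skeleton of the spine, lies at chr7:144001928-144424494 on the + strand and has 28 exons. It was at 149, 244, 159, 156 and 175 CPM in Wt mice 12, 41, 79, 80 and 95, and at 124 (mouse 91), 136 and 154 CPM (mouse 92) in Tg mice. All Wt mice but mouse 12 were above all Tg mice, and 4 of the 7 Tg mice were below all Wt mice. Mouse 41 stood apart from the other Wt mice, whose mean without it was 159.8 ± 10.7 CPM (SD, n = 4) in place of 177 ± 38.9 CPM (SD, n = 5).

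Homer1 and Homer2 are paralogous adaptors that join Shank proteins to metabotropic glutamate receptors and to channels of the endoplasmic reticulum. Long Homer forms pair through a coiled coil, and a short, activity-induced Homer1 form lacks it and uncouples these links. Homer1 (chr13:93299635-93405129, + strand) has 12 annotated transcripts, and counts per gene do not separate the short form from the long ones. It was at 89.7, 180.4, 117, 158 and 109 CPM in Wt mice 12, 41, 79, 80 and 95, and at 69.6 (mouse 32), 103 and 121 CPM (mouse 92) in Tg mice. Mice 41 and 80 were above all Tg mice, 2 Tg mice were below all Wt mice, and the rest were mixed. Homer2 (chr7:81600481-81707527, - strand) was at 66.5, 123, 78.1, 97.8 and 118 CPM in the same Wt mice, and at 65.0 (mouse 68), 75.8 and 98.6 CPM (mouse 92) in Tg mice. Only the Wt pair labelled male, 41 and 95, exceeded all Tg mice for Homer2, and mouse 12 lay near the bottom of the Tg range.

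Sipa1l1 codes for a Rap GTPase-activating protein that binds the receptor-anchoring kinases and actin and enlarges spine heads. Sipa1l1 (chr12:82169320-82451786, + strand, 27 exons) was at 473, 520.4, 431, 455 and 451 CPM in Wt mice 12, 41, 79, 80 and 95, and at 372 (mouse 91), 413 and 448 CPM (mouse 93) in Tg mice. All Wt mice but mouse 79 were above all Tg mice, and 4 of 7 Tg mice were below all Wt mice. Its coefficient of variation over all mice, 8.47%, was the smallest of the 7 genes, against 27.0% for Homer1.

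Lrrtm4 codes for a leucine-rich transmembrane protein that sits in the postsynaptic membrane and binds presynaptic heparan sulfate proteoglycans, and it is known from dentate granule cells. Lrrtm4 (chr6:80018877-80810143, + strand, 4 exons) was at 42.2, 51.5, 50.4, 66.9 and 50.7 CPM in Wt mice 12, 41, 79, 80 and 95, and at 33.8 (mouse 91), 42.7 and 50.3 CPM (mouse 93) in Tg mice. Mouse 80 was the highest of all, mouse 41 was close to 79 and 95, and mouse 12 lay among the Tg mice. Lrrtm4 was the 1 gene of the 7 for which mouse 41 was not the highest of the 12. Exons of other annotated genes on the opposite strand share 25.1% of the exon length of Lrrtm4 (Gm4409), 4.16% of that of Homer2 (Gm44570) and 0.514% of that of Dlgap1 (AC079441.1). The counting is not stated to use strand, so reads of these partners cannot be told apart from those of the scaffold genes.

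**Figure D1:**
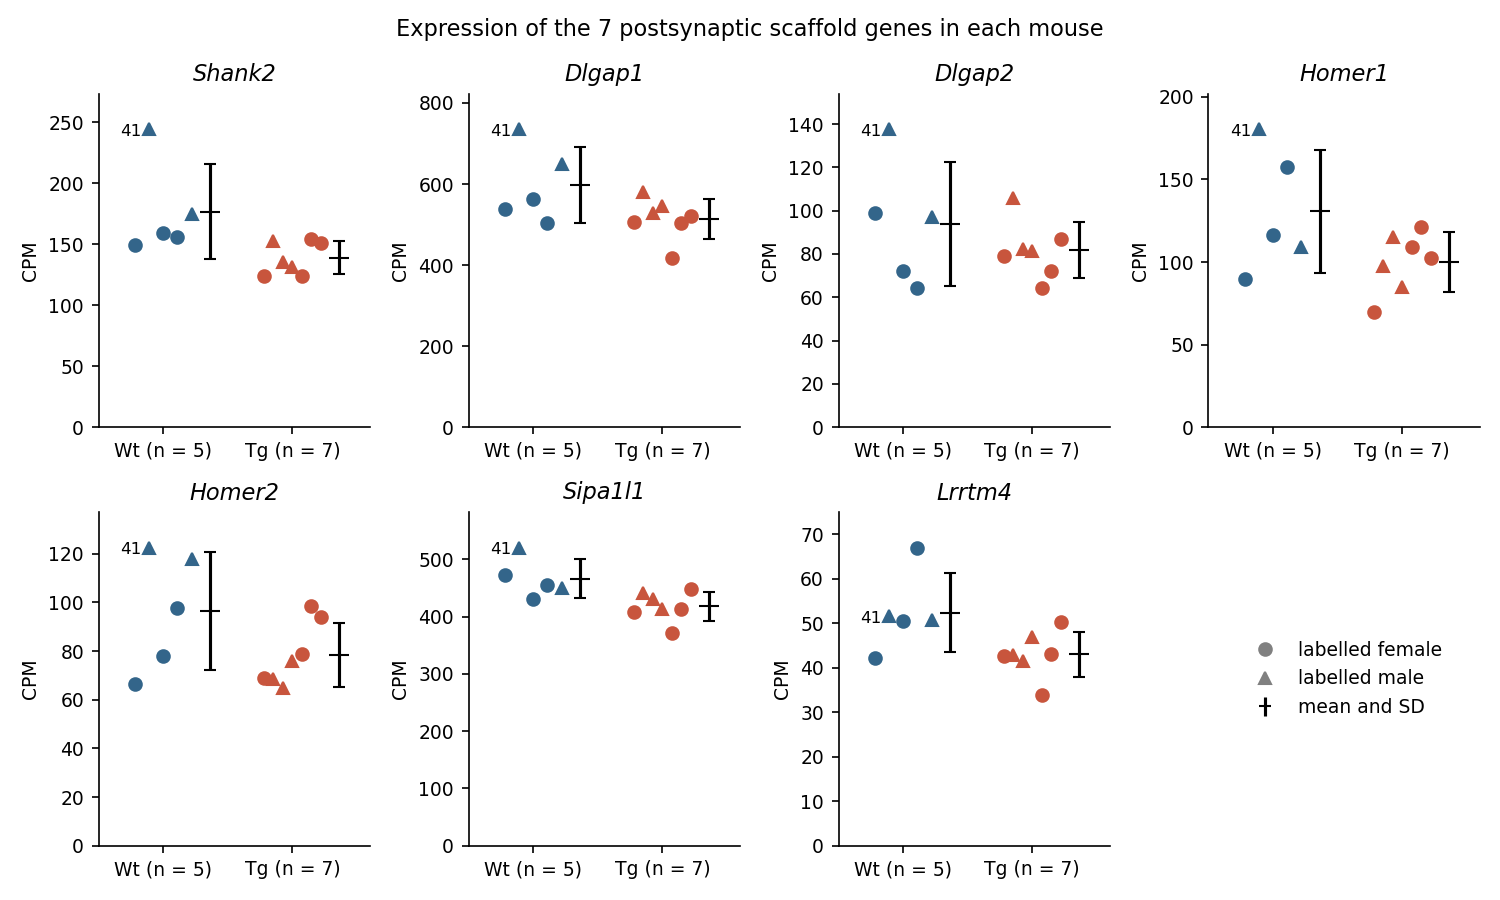
Each panel plots the CPM of a scaffold gene on the y axis from 0, with 1 point per mouse, Wt in blue and Tg in red, circles for mice labelled female and triangles for mice labelled male, beside the mean and SD of each genotype. The point marked 41 is the library whose Xist level goes against its sex label, and it is the highest in 6 of the 7 panels.

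Promoters of 5 of the 7 genes are listed in RefSeq on GRCm38.p6, with 10 entries in all that run from 250 bases before to 50 bases after a transcription start; Shank2 and Dlgap2 have no entry. They were searched on both strands for TGACGT (the core of the cyclic AMP response element), GGGCGG (the GC box), CACGTG (an E-box) and TATAAA (the TATA box). The entry printed for each of Homer1, Homer2, Dlgap1 and Sipa1l1 is the first listed. They are the paralog pair of the family and the 2 genes with an entry whose levels were most alike over mice. Capitals mark every match to a searched motif or to its reverse complement. The entries are chr13:93303507-93303806 (+ strand) for Homer1, chr7:81706876-81707175 (- strand) for Homer2, chr17:69968823-69969122 (+ strand) for Dlgap1 and chr12:82169766-82170065 (+ strand) for Sipa1l1.
Homer1: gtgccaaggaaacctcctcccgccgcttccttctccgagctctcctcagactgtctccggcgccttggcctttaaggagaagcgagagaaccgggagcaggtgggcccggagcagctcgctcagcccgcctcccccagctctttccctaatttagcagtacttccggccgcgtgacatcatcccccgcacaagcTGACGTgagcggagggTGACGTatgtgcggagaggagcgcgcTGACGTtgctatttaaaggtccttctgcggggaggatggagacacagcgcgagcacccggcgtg
Homer2: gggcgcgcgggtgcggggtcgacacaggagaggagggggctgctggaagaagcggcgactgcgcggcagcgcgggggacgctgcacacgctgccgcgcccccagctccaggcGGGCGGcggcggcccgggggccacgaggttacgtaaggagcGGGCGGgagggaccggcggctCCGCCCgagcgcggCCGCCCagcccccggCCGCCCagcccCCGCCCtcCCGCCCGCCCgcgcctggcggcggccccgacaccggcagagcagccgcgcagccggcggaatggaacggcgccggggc
Dlgap1: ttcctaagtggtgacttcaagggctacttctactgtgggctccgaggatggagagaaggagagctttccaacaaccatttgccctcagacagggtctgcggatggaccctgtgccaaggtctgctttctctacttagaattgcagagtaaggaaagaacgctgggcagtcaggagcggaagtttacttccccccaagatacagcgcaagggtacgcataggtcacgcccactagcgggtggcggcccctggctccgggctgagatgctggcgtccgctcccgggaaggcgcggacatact
Sipa1l1: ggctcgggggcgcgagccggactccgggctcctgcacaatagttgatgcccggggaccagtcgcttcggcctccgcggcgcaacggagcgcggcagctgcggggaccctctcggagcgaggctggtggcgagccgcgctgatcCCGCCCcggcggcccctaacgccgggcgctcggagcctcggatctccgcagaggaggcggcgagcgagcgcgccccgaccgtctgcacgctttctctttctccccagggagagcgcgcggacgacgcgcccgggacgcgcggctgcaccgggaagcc

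The first entries of the 2 Homer genes differed in what they hold. That of Homer1 has 63.0% G and C and carries TGACGT 3 times, with first bases at -56, -40 and -14 relative to the start. TGACGT was found in 7.51% of all 32851 promoters of the same length, and 66 of them (0.201%) held it at least 3 times. That of Homer2 has 82.3% G and C, no TGACGT, and 8 matches to GGGCGG or its complement CCGCCC between -138 and -24, of which those at -28 and -24 share letters. GGGCGG was present in 35.7% of all promoters. The Dlgap1 entry holds none of the searched motifs, and a second Dlgap1 entry has CACGTG at -102, a motif found in 7.15% of promoters. The first Sipa1l1 entry has 75.7% G and C with a single GGGCGG match at -107, against a median of 52.7% G and C over all promoters. TATAAA, which 13.6% of promoters hold, occurs in the first Lrrtm4 entry on the reverse strand at -115 and -108, and in the second entries of Homer2 (at -170) and Sipa1l1 (at -174, reverse strand). The second entries of Homer1 and Lrrtm4 hold none of the motifs. These matches describe letters in the windows and are not measured binding sites.

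To compare levels between genes, CPM was divided by the length of all exons of a gene in kb. Over all 12 mice Sipa1l1 was highest, at 34.2 ± 2.90 CPM per kb (SD, n = 12), followed by Dlgap1 at 30.7 ± 4.46. A lower tier held Shank2 at 14.4 ± 2.98 and Dlgap2 at 14.1 ± 3.37 CPM per kb. Homer1 at 9.42 ± 2.55, Lrrtm4 at 7.63 ± 1.33 and Homer2 at 6.81 ± 1.58 CPM per kb came last. Only the step from Dlgap1 to Shank2 separated neighbours in every mouse without overlap of their ranges. Shank2 exceeded Dlgap2 in 6 of 12 mice, so their order was not determined, and Lrrtm4 exceeded Homer2 in 8 of 12. Sipa1l1 exceeded Dlgap1, Dlgap2 exceeded Homer1 and Homer1 exceeded Lrrtm4 in 10, 11 and 10 of 12 mice, with overlapping ranges. In CPM, without length, even Lrrtm4 had a mean above that of 74.8% of all genes, and Dlgap1 above 98.9%. The lowest count behind any of these values was 624 (Lrrtm4) and the highest 13242 (Dlgap1), so spread between mice limits the comparisons more than counting does. The length takes in exons of all annotated transcripts, whether expressed here or not. For Lrrtm4 25.1% of it is shared with Gm4409. The effect of these limits on the order of the genes was not tested.

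**Figure D2:**
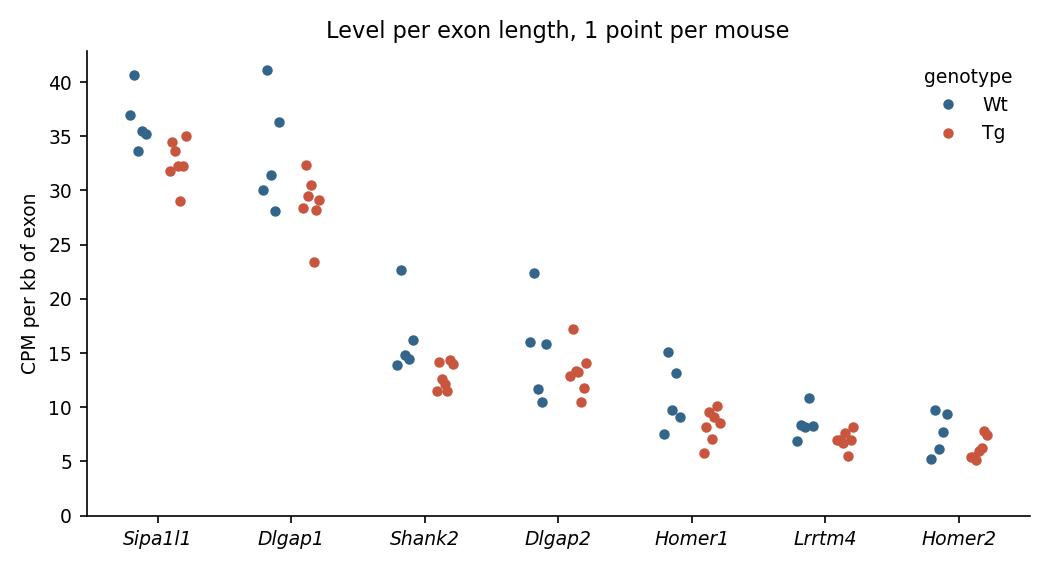
CPM per kb of exon is plotted for each of the 7 genes, in descending order of the mean, with 1 point per mouse (Wt blue, Tg red). The gap between Dlgap1 and Shank2 is the 1 step where the ranges of neighbours do not meet.

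Between the genotypes, means of all 7 genes were lower in Tg mice, and none passed the test. In edgeR's quasi-likelihood test, fitted with terms for sex and batch and with Benjamini-Hochberg adjustment over all 15928 genes, 0 of 7 had an adjusted p under 0.1, against 1 gene (0.00628%) of all genes tested, App. At an unadjusted p under 0.05 there were 4 of 7, against 7.19% of all genes and 81.3% of the named genes, and without mouse 41 there was 1 of 7, against 4.73% of all and 42.6% of the named genes in that fit. Leaving out each other mouse gave 2 to 6 of 7. It was 2 without mouse 68, 69 or 91, against 5.06%, 5.42% and 4.96% of all genes, and 6 without mouse 93, against 9.4%. Without mouse 12 or 95 it was 5, against 9.96% and 9.64%. In batch 1 alone it was 0 of 7, against 3.045% of all genes. In DESeq2 0 of 7 were called, against 0.352% of all genes, and 7 of 7 had an unadjusted p under 0.05, against 7.7%. In edgeR all 4 were lower in Tg mice, as were 2.73% of all genes at that p. A fitted log2 fold change below 0 was found in 7 of 7, in 50.7% of all genes and in 44.1% of the named genes. No scaffold gene had all Tg mice below all Wt mice, a pattern held by 0.113% of all genes. Because the naming table was ordered by this contrast, nothing is read from these shares. In bulk tissue, fewer cells of a type and less RNA per cell cannot be told apart.

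Shank2 had the smallest p of the group. Its level was 177 ± 38.9 CPM (SD, n = 5) in Wt and 139 ± 13.6 CPM (SD, n = 7) in Tg mice, for a fitted log2 fold change of -0.36 (SE 0.105, edgeR quasi-likelihood adjusted p = 0.611 with Benjamini-Hochberg adjustment). For Homer1 the log2 fold change was -0.38, with a larger SE of 0.179. The other log2 fold changes were -0.32 (SE 0.153) for Homer2, -0.26 (SE 0.115) for Lrrtm4, -0.23 (SE 0.0839) for Dlgap1, -0.23 (SE 0.104) for Dlgap2 and -0.16 (SE 0.0773) for Sipa1l1. Their adjusted p in edgeR ranged from 0.625 to 0.701 with Benjamini-Hochberg adjustment. The median of the 7 was -0.26, beside 0.00 for all genes and 0.32 for all named genes. Mouse 41 carried part of this. Without it the median was -0.19, and the values of Homer1 and Shank2 were -0.17 (SE 0.171) and -0.24 (SE 0.0952). Within batch 1 (3 Wt and 5 Tg mice) the median was also -0.19, ranging from -0.28 for Dlgap2 to -0.11 for Lrrtm4.

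**Figure D3:**
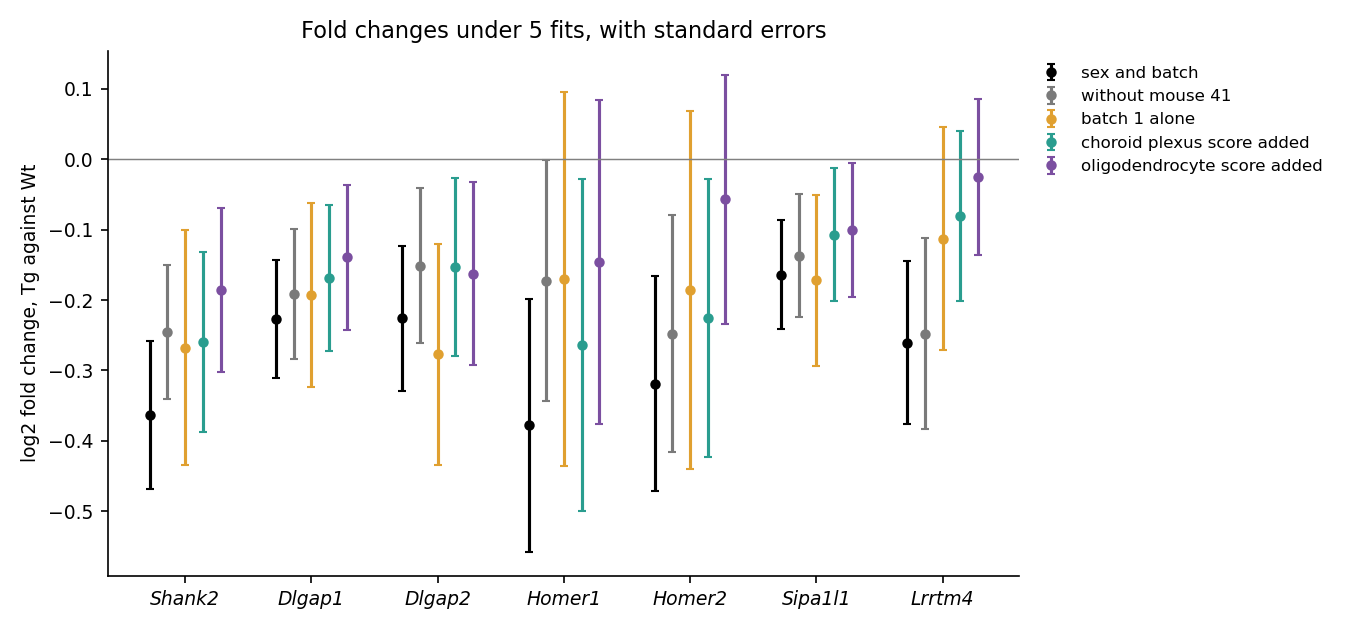
Log2 fold changes of Tg against Wt mice (y axis) with their standard errors are plotted for the 7 genes under 5 edgeR fits, named in the key. Every point is below 0, the points without mouse 41 are nearer to 0 than those of the fit with all mice, and those with an oligodendrocyte score range from -0.19 for Shank2 to -0.03 for Lrrtm4.

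Sex and library batch were also examined. Named genes had an unadjusted p under 0.05 more often than all genes in these contrasts too, 18.8% of them between the sexes and 11.7% between the batches. Between mice labelled male and female, 0 of 7 genes passed in edgeR's quasi-likelihood test, as did 0 of all genes (0.0%). In that test 2 of 7 had an unadjusted p under 0.05, against 11.3% of all genes. These were 2 of 7 and 5.26% without mouse 41, and 3 of 7 and 19.8% without mouse 95. DESeq2 called 1 of 7 and 175 genes in all (1.1%). The gene was Dlgap2, at 76.8 ± 12.5 CPM (SD, n = 7) in females and 101 ± 23.0 CPM (SD, n = 5) in males. Its log2 difference, male minus female, was 0.43 (SE 0.104) with adjusted p = 0.325 in edgeR's quasi-likelihood test and 0.0541 in DESeq2, both with Benjamini-Hochberg adjustment. Over DESeq2 and the leaving out of each mouse in turn, the adjusted p of Dlgap2 ranged from 0.0444 (without mouse 95, where edgeR called 540 genes and 1 of the 7) to 0.920 (without mouse 41, where it called 1 gene and 0 of the 7). Its log2 difference was then 0.54 and 0.35. Without mouse 41 the males were at 91.6 ± 11.9 CPM (SD, n = 4) and the SE of the difference was 0.1102. Its close relative Dlgap1 followed, with 508 ± 44.7 CPM in females, 607 ± 85.2 CPM in males and a log2 difference of 0.27 (SE 0.0837), or 0.23 without mouse 41. Shank2 had a log2 difference of 0.21 with mouse 41 and 0.09 without it. The remaining 4 genes lay between -0.01 (Lrrtm4) and 0.09 (Homer1 and Homer2), and without mouse 41 that of Homer1 turned to -0.11 and that of Homer2 was 0.02. No marker of another cell type passed edgeR's test between the sexes either. The median log2 difference of such markers, male minus female, was -1.23 for choroid plexus, -0.67 for thalamus, -0.56 for oligodendrocyte and 0.26 for glutamatergic neuron markers, and -0.96, -0.69, -0.41 and 0.21 without mouse 41. Their part in the difference of Dlgap2 was not tested.

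Between the library batches no gene of the 7 passed the test. In edgeR's quasi-likelihood test 0 of 7 genes, and 0.0% of all, had an adjusted p under 0.1 between the batches, 1 of 7 had an unadjusted p under 0.05, against 7.64% of all genes, and DESeq2 called 0 of 7 and 24 in all (0.163%). The gene at that p was Dlgap2, with 92.7 ± 22.9 CPM (SD, n = 8) in batch 1 and 75.0 ± 8.39 CPM (SD, n = 4) in batch 2, and a log2 difference, batch 2 minus batch 1, of -0.37 (SE 0.111) after sex and genotype. Its adjusted p by Benjamini-Hochberg was 0.636 in edgeR's quasi-likelihood test and 0.379 in DESeq2, and without mouse 41 the difference was -0.30. That of Homer1 was 0.05 (SE 0.189) with mouse 41 and 0.22 (SE 0.172) without it. Without mouse 41, 1 of 7 had an unadjusted p under 0.05 between the batches in edgeR, against 3.96% of all genes. Without mouse 95 it was 1 of 7, against 15.9%. Choroid plexus markers had a median difference of 1.06 between the batches, or 0.86 without mouse 41, and their part was not tested.

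Whether the difference between genotypes depended on the labelled sex was tested as an interaction. No gene passed in edgeR's quasi-likelihood test (0 of 7, and 0.0% of all genes), 1 of 7 had an unadjusted p under 0.05, against 3.56% of all genes, and DESeq2 called 0 of 7 and 17 in all (0.107%). The gene at that p was Homer2. Among females Homer2 was at 80.8 ± 15.8 CPM in Wt (SD, n = 3) and 85.0 ± 13.7 CPM in Tg mice (SD, n = 4). Among males the Wt mice 95 and 41 were at 118 and 123 CPM and the 3 Tg mice between 65.0 and 75.8 CPM. The share of all genes without overlap among these few males is not given here. In Shank2, Dlgap1, Sipa1l1 and Lrrtm4 mice 95 and 41 were likewise above the 3 Tg males, so the pattern was not particular to Homer2. The interaction, the genotype difference in males minus that in females, was -1.16 on the log2 scale (SE 0.323), with an adjusted p of 0.993 by Benjamini-Hochberg in edgeR's quasi-likelihood test, and of 0.348 to 1.0 over DESeq2 and the leaving out of each mouse. It was -1.13 without mouse 41, whose Xist level goes against the male label, and -0.81 without mouse 12, where the unadjusted p was no longer under 0.05. In the fit without mouse 12, 0 of 7 genes and 1.53% of all genes were under that limit. Leaving mouse 41 out leaves 1 Wt mouse labelled male, and that mouse is then assumed to vary like the others. Batch 2 holds only Wt females and Tg males, so with a batch term the interaction rested almost wholly on batch 1. There mouse 12 was the only Wt female and mouse 67 the only Tg male. The Homer2 interaction was -1.54 without mouse 67, and -1.16, -1.16, -1.15 and -1.17 without mouse 68, 69, 79 or 80. The CPM values by sex above are not adjusted for batch.

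The 7 genes were next compared by how they varied among mice of a genotype. Deviations of log2 CPM from the genotype means were correlated over the 12 mice, which takes out the mean difference between the genotypes but not the selection of the named genes. These are descriptions without p, over mice that share batches, sex and section composition. The median Pearson's r of the 21 pairs was 0.344 (Spearman's rho 0.399), and 20 of 21 were above 0. Over all pairs of the 15928 genes the median was 0.00 and the 95th percentile 0.672, and over pairs of the 1349 named genes 0.00870 and 0.689. Within the 8 mice of batch 1 the median of the 21 pairs was 0.692 and all were above 0, where r also spread more widely, with a 95th percentile of 0.738 over all pairs of genes and 0.795 over pairs of named genes. Above 0 were 49.96% and 50.95% of these pairs. Batch 2, with 2 mice per genotype, was too small for a value of its own.

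The highest values were among Dlgap1, Dlgap2, Sipa1l1 and Shank2. Dlgap1 and Dlgap2 had r = 0.861, Dlgap2 and Sipa1l1 0.815, Shank2 and Dlgap1 0.780, and Shank2 and Sipa1l1 0.732. These 4 genes cover the layer from the Dlgap proteins to Shank2, with Sipa1l1 beside it. The Homer paralogs had r = 0.578 with each other, and Homer1 with Dlgap2 only 0.0277. Shank2 had r = 0.621 with Homer1 and 0.662 with Homer2. Lrrtm4 ranged from -0.121 with Dlgap2 to 0.384 with Homer2. Without mouse 41 the median of the 21 pairs was 0.372, but single pairs moved both ways. The pair of Dlgap genes then had r = 0.768, Dlgap2 and Sipa1l1 0.695, and the Homer pair 0.447. Shank2 had 0.609 with Dlgap1, 0.518 with Sipa1l1 and 0.402 with Dlgap2, against 0.572 with Homer2 and 0.372 with Homer1, so it stood no nearer to Dlgap2 and Sipa1l1 than to Homer2. Homer1 turned to -0.518 with Dlgap2, -0.299 with Dlgap1 and -0.0613 with Sipa1l1. Homer2 turned from 0.160 to -0.205 with Dlgap2 and from 0.221 to -0.0716 with Sipa1l1. Lrrtm4 ranged from -0.150 with Dlgap2 to 0.436 with Homer2, and 15 of 21 pairs were above 0. In batch 1 alone, which holds mouse 41, the Dlgap pair had r = 0.859, the Homer pair 0.735, and Homer1 with Dlgap2 0.309. There Lrrtm4 had 0.777 with Dlgap1, 0.722 with Sipa1l1 and 0.210 with Homer1.

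**Figure D4:**
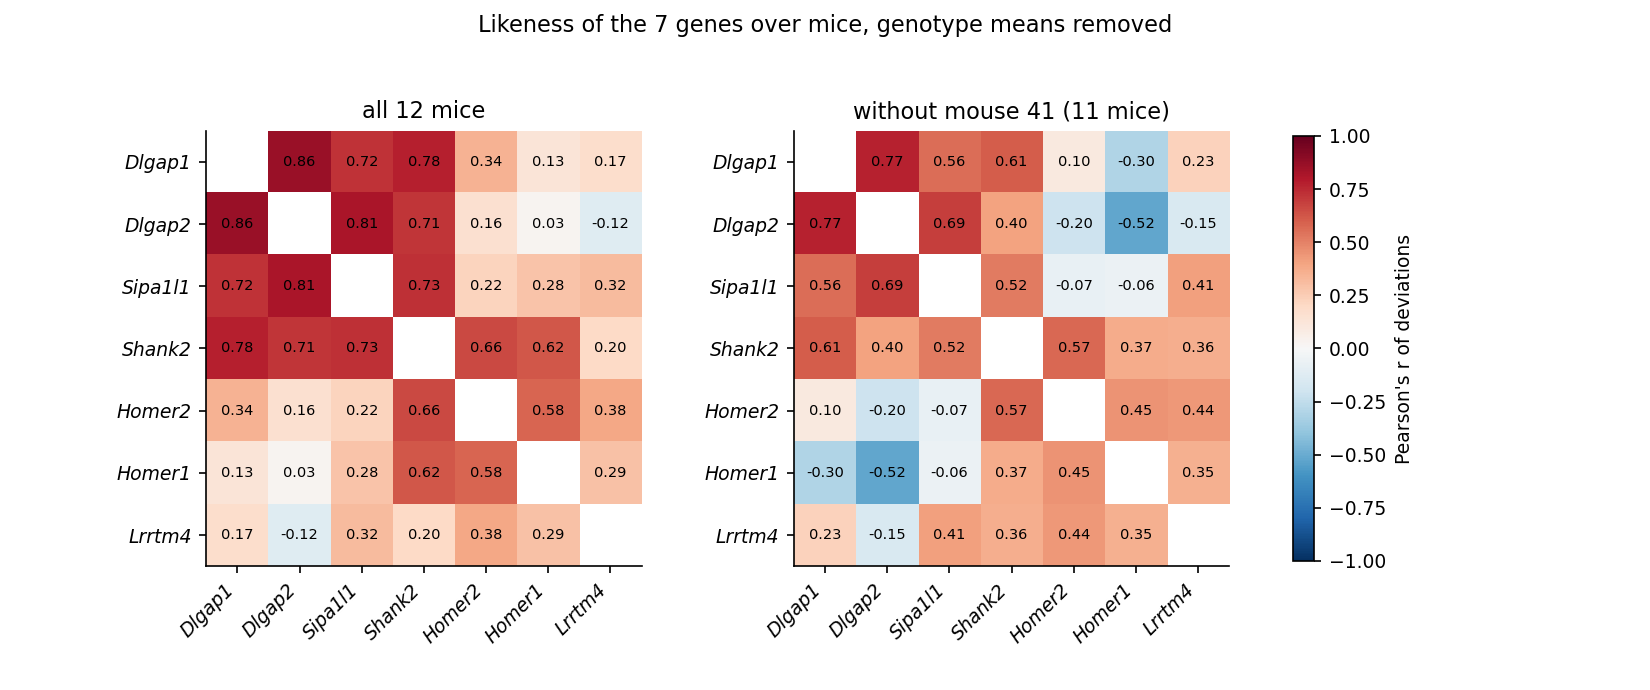
Colour and printed values give Pearson's r between deviations of 2 genes from their genotype means, over 12 mice on the left and over 11 mice without mouse 41 on the right, on a scale from -1 to 1. Dlgap1, Dlgap2, Sipa1l1 and Shank2 form the red block at upper left, which is paler for Shank2 in the right panel, and the values of Homer1 with Dlgap1 and Dlgap2 are below 0 in the right panel.

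In each mouse the mean deviation of the 7 genes shows who stood high and who stood low. Mouse 41 was highest at 0.35 on the log2 scale, and mice 93, 92 and 67 followed at 0.13, 0.09 and 0.08. Mouse 12 was lowest at -0.21, then mice 91, 79 and 32 at -0.16, -0.15 and -0.13. Mouse 93 had all 7 genes above its genotype mean and mouse 79 none of 7.

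Named genes outside the group were ranked by r with the mean standardized deviation of the 7. The 10 most alike were Fam212b (0.913), Trim9 (0.902), Nrg3 (0.899), Gabbr2 (0.890), Camk2a (0.889), Cnih3 (0.882), E130012A19Rik (0.880), Arhgef7 (0.876), Ankrd33b (0.873) and Mical2 (0.872), each r over 12 mice. Among them Camk2a is the alpha subunit of the calcium- and calmodulin-dependent kinase of the postsynaptic density, Cnih3 an auxiliary subunit of AMPA receptors, Gabbr2 a subunit of the GABA-B receptor and Nrg3 a neuregulin. Arhgef7 is an exchange factor for Rac found in spines, Trim9 a brain ubiquitin ligase and Mical2 an oxidoreductase that acts on actin. Without mouse 41 their r ranged from 0.744 (Ankrd33b) to 0.926 (Trim9), and in batch 1 alone from 0.897 (Mical2) to 0.964 (Ankrd33b). Among the least alike were C4b (-0.937), Npc2 (-0.881) and Plxnb3 (-0.878). C4b is a complement component, Npc2 a lysosomal cholesterol carrier and Plxnb3 a semaphorin receptor. Without mouse 41 these stayed between -0.870 (Plxnb3) and -0.817 (Npc2). Of all 15921 other genes, 113 (0.710%) had r over 0.8 and 120 (0.754%) under -0.8. Of the 1342 other named genes, 42 (3.13%) and 52 (3.88%) were past these limits, a larger share than of all genes.

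Markers of some other cell types moved against the scaffold genes from mouse to mouse. The 12 oligodendrocyte markers, all named and led by Mbp, a myelin protein, summed to 3750.0 CPM in mouse 12, 1133 in mouse 41, 2078 in 79, 1656 in 80 and 1530.0 in 95, and in Tg mice to 1548 (mouse 93), 3773 and 6263 CPM (mouse 91). Mice 41 and 93, with the most positive deviations of the scaffold genes in their genotypes, had the lowest sums, and mice 12 and 91, with the most negative, the highest. The r between the mean deviations of the markers and of the scaffold genes was -0.817 over 12 mice (Spearman's rho -0.832), -0.867 without mouse 41 and -0.882 in the 8 mice of batch 1.

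Choroid plexus markers, 14 of 15 named and led by Ttr, were at 594, 105, 349, 208 and 140.3 CPM in Wt mice 12, 41, 79, 80 and 95. In Tg mice they were at 100.1 (mouse 93), 1830.0 and 2356 CPM (mouse 91), and mouse 67 was also at 100.1 CPM. So 5 Tg mice were far above all Wt mice, and mice 67 and 93 were close to mouse 41, below it in this sum and above it in the mean log2 level of the markers. The share of Ttr in the sum of these markers had a mean of 44.1% over the mice and differed widely. Ttr was 7.208 of 100.1 CPM in mouse 67 and 1278 of 1830.0 CPM in mouse 69. Kcne2 was at 0 in at least 1 library. Their r with the scaffold genes was -0.667 over 12 mice, -0.666 without mouse 41 and -0.700 in batch 1. Thalamus markers (5 of 12 named, Slc17a6 the most abundant) summed to between 34.7 and 110.4 CPM in Wt and between 57.3 and 315 CPM in Tg mice, again highest in mice 12 and 91, with r = -0.703, or -0.848 without mouse 41.

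Glutamatergic neuron markers went the other way, and GABAergic markers had r nearer 0. The 7 glutamatergic markers were led by Slc17a7, whose share of their sum had a mean of 46.7% over the mice. They were at 2740.0, 4053, 3325, 2655 and 3985 CPM in Wt mice 12, 41, 79, 80 and 95, and at 2154 (mouse 91), 2751 and 3231 CPM (mouse 93) in Tg mice. In mean log2 deviation, which r uses, mouse 41 was highest among Wt mice at 0.25 and mouse 68 among Tg mice at 0.20. Mouse 93 was at -0.03 on that scale, unlike its sum. The r with the scaffold genes was 0.775, 0.627 without mouse 41 and 0.869 in batch 1. GABAergic markers (4 of 12 named, Reln the most abundant) summed to 310.1 to 409 CPM in Wt and 283 to 409 CPM in Tg mice, with r = -0.218, which turned to 0.0998 without mouse 41. Astrocyte markers (5 of 10, led by Slc1a2) ranged from 2740.0 to 3537 CPM in Wt and 2492 to 3122 CPM in Tg mice, with r = -0.690, or -0.387 without mouse 41. Slc1a2 itself, most of that sum, had r = 0.566 with the scaffold genes and 0.511 without mouse 41. Microglia markers (4 of 12, led by C1qb) ranged from 58.2 to 74.0 CPM in Wt and 73.0 to 98.3 CPM in Tg mice, with r = -0.341, or -0.241 without mouse 41. Blood vessel markers (2 of 10, led by Esam) ranged from 9.99 to 16.3 CPM in Wt and 13.1 to 21.8 CPM in Tg mice, with r = 0.119, which turned to -0.392 without mouse 41 and to -0.0420 in batch 1.

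**Figure D5:**
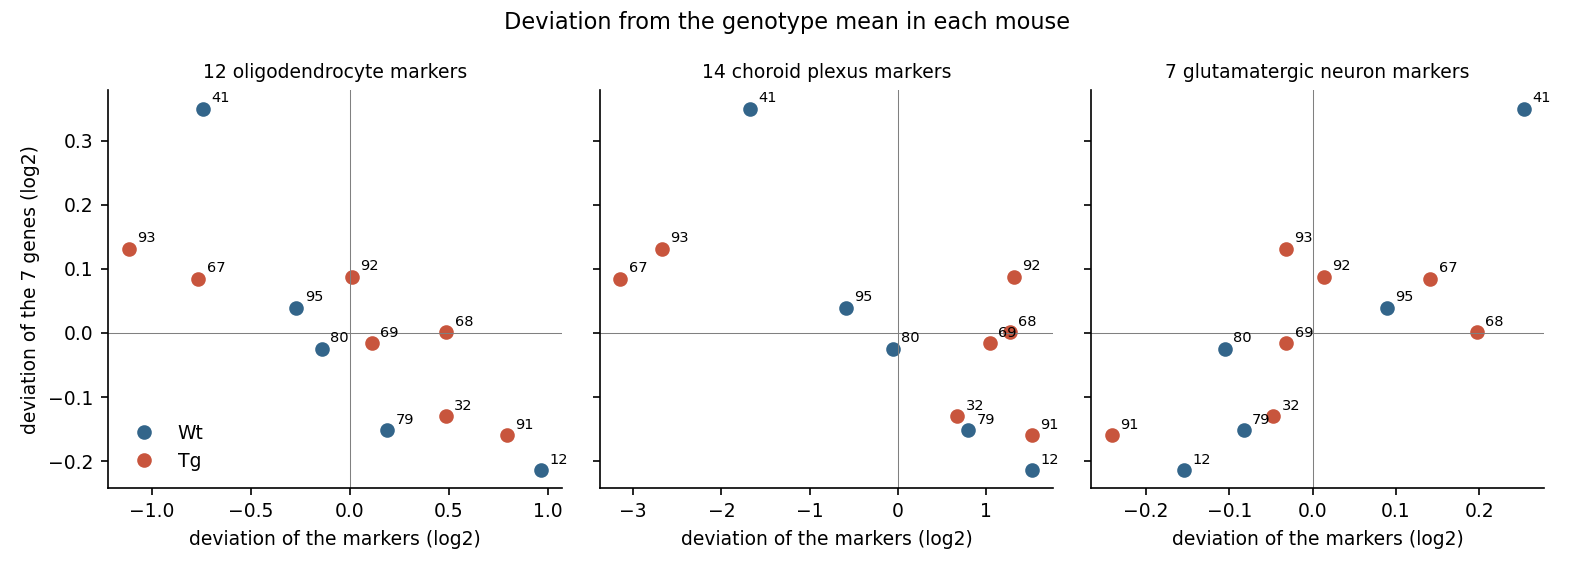
Mean deviation of the 7 scaffold genes from the genotype mean (y axis, log2) is plotted against that of 12 oligodendrocyte, 14 choroid plexus and 7 glutamatergic neuron markers (x axes, log2, each on its own scale), with 1 numbered point per mouse, Wt in blue and Tg in red. The points fall from upper left to lower right for oligodendrocyte and choroid plexus markers and climb from lower left to upper right for glutamatergic markers.

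Between the genotypes no marker passed edgeR's test, and the values are those of genes selected on that contrast. Median log2 fold changes were 2.50 for the choroid plexus markers (14 of 14 higher in Tg mice), 0.94 for the oligodendrocyte markers (12 of 12 higher), 1.20 for the thalamus markers (5 of 5), 0.31 for astrocyte, 0.36 for microglia and 0.35 for blood vessel markers. The glutamatergic markers had -0.28 (6 of 7 lower) and the GABAergic 0.00. Without mouse 41 the medians were 2.37, 0.83 and 1.16 for choroid plexus, oligodendrocyte and thalamus markers and -0.22 for the glutamatergic ones. Of these 53 genes 0 had an adjusted p under 0.1 in edgeR's quasi-likelihood test. In that test 49 had an unadjusted p under 0.05, beside 81.3% of all named genes and 7.19% of all genes. Without mouse 41 there were 27, beside 42.6% and 4.73%. DESeq2 called 3, beside 0.352% of all genes, and these were 1 choroid plexus and 2 astrocyte markers. Of all genes 50.7%, and of the named genes 44.1%, were lower in Tg mice. Examples with the smallest p were Prlr, Kl and Clic6 of the choroid plexus at log2 fold changes of 1.81, 1.92 and 1.72, and Mobp and Mal of myelin at 1.10 and 0.84. Astrocytic Agt and Gfap were at 0.75 and 1.01, but Slc1a2, their glutamate transporter, at -0.32. Neuronal Bcl11a, Chrm1 and Mef2c were at -0.29, -0.22 and -0.28. For microglial C1qb, C1qa and Tyrobp the values were 0.29, 0.27 and 0.43, for interneuronal Cort, Pnoc and Reln -0.54, 0.43 and -0.27, for thalamic Plekhg1, Slc17a6 and Prkcd 1.29, 0.75 and 1.69, and for Esam and Tie1 of vessels 0.34 and 0.36.

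With the mean log2 level of the oligodendrocyte markers added to the fit, the 7 scaffold genes had a median log2 fold change of -0.14 in place of -0.26, and 0 of 7 had an unadjusted p under 0.05, against 2.53% of all genes in that fit. Shank2 was then at -0.19 (SE 0.116), Dlgap2 at -0.16, Homer1 at -0.15, Dlgap1 at -0.14, Sipa1l1 at -0.10, Homer2 at -0.06 and Lrrtm4 at -0.03. The choroid plexus score gave a median of -0.17, with Homer1 and Shank2 at -0.26 and Lrrtm4 at -0.08. In that fit 0 of 7 had an unadjusted p under 0.05, against 2.69% of all genes. Homer2 moved most with the oligodendrocyte score and Lrrtm4 with the choroid plexus score. Genotype and marker levels overlap in these mice, and their separate parts in the result were not tested.

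Other genes of the synapse that could be named were described for comparison. None of the 10 paralogs of the 7 genes in the Shank, Dlgap, Homer, Sipa1l and Lrrtm families could be named. Of 47 other postsynaptic scaffold and signalling genes 26 were named, 25 of them lower in Tg mice and 0 called in edgeR's quasi-likelihood test at an adjusted p under 0.1, with 19 at an unadjusted p under 0.05 and a median log2 fold change of -0.25. In that list Lrrc7, a densin that binds Shank and the calcium kinase, was at 141 ± 21.7 CPM in Wt and 116 ± 9.30 CPM in Tg mice (log2 fold change -0.30), Wasf1, an actin regulator, had -0.31 and Synpo, which organizes the spine apparatus, -0.33. Glutamate receptors and their auxiliary subunits (7 of 32 named) were all 7 lower, with 7 at an unadjusted p under 0.05, a median of -0.26, and Grin2b, Cacng3 and Neto1 at -0.34, -0.35 and -0.26. Postsynaptic adhesion genes (5 of 21 named) were all 5 lower, 3 at that p, with a median of -0.23 and Lrfn5, Icam5 and Slitrk2 at -0.23, -0.27 and -0.26. Of the genes for release sites and vesicles 9 of 30 were named, 8 lower and 4 at that p, with a median of -0.19 and the active zone genes Bsn and Pclo at -0.36 and -0.30 and the channel gene Cacna1b at -0.19. Activity-regulated genes had 13 of 32 named, 12 lower and 9 at that p, with a median of -0.34 and Dusp4, Egr4 and Plk2 at -0.56, -0.74 and -0.25. Of the 60 genes in these 5 lists, edgeR and DESeq2 both called 0, with 42 and 55 at an unadjusted p under 0.05, and 57 were lower in Tg mice. Beside these stand, in edgeR, 7.19% of all and 81.3% of named genes at that p, and 50.7% and 44.1% lower in Tg mice. Without mouse 41 edgeR had 20 of the 60 at that p, beside 42.6% of named genes, and the medians in the order of the lists were -0.21, -0.23, -0.20, -0.17 and -0.18. The median of the activity-regulated genes moved most, with 3 in place of 9 genes at that p, and the presynaptic genes had 1 in place of 4. All were named through the same table, so their shared direction is a description.

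Over mice of a genotype, the deviations of the scaffold genes followed those of the 26 other postsynaptic genes with r = 0.900 and of the 7 receptor genes with r = 0.914, and these were 0.832 and 0.877 without mouse 41 and 0.911 and 0.952 in batch 1. With adhesion genes r was 0.728 (0.499 without mouse 41), with presynaptic genes 0.669 (0.258 without it) and with activity-regulated genes 0.732 (0.168 without it). Over all 12 mice Spearman's rho was 0.657, 0.413 and 0.566 for these 3 lists. In Pearson's r the relation to activity-regulated and presynaptic genes thus depended on mouse 41, where the activity-regulated genes stood 0.56 above the Wt mean on the log2 scale. Egr4, an immediate early transcription factor, went from r = 0.609 with the scaffold genes to -0.0417 without that mouse. By gene, Dlgap1 and Dlgap2 had the highest median r with the adhesion genes (0.798 and 0.751), Shank2 with the receptor genes (0.762), and Lrrtm4 was at or under 0.223 for all 5 lists. Without mouse 41 these 3 values were 0.668, 0.701 and 0.619, and Lrrtm4 was at or under 0.229. Homer1 had a median r of 0.117 with the 26 postsynaptic genes over 12 mice. Without mouse 41 it was -0.146 with these, -0.467 with adhesion and -0.192 with presynaptic genes. With receptor and activity-regulated genes it was then 0.203 and 0.230. Homer2 was then at -0.0765 with adhesion and -0.145 with presynaptic genes, and at 0.163, 0.304 and 0.0249 with postsynaptic, receptor and activity-regulated genes.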

How the data were processed

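RNA-seq counts of 12 libraries were analysed, and DNA methylation was not analysed here. Total RNA depleted of ribosomal RNA was read on an Ion Torrent instrument and aligned with STAR and Bowtie2 to mm10. The authors deposited raw counts of unique reads per gene, without genes of low count. A second deposited table gives the batch and a normalization factor for each library, a ratio the authors computed with edgeR. Names were given to genes of the count table by the match of mean normalized counts to the study's DESeq2 table, and that table's fold changes and p-values were not used. No name was found in 10 trials with shifted means, and 335 of its genes stayed unnamed.

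Genotype, sex and age came from the labels and batch from the deposited table. Tests used the quasi-likelihood F-test of edgeR 4.0.16 (TMM, sex, batch and genotype in the design, filterByExpr, which kept all 15928 genes) in R 4.3.3, with Benjamini-Hochberg adjusted p under 0.1 and a biological coefficient of variation of 0.201. DESeq2 1.42.0 was the alternative, beside other normalizations, filters, covariates, the mice of batch 1, and fits that left out each mouse. The scripts were tested on simulated data. Standard errors are the fold change divided by the root of the F statistic. Likeness and marker sums were obtained with pandas 2.3.3 and numpy 2.4.6 under Python 3.11.15, from log2 CPM with a prior count of 2. No 2 libraries held identical counts, and all pairs of a group differed beyond sampling noise.

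The named genes were the 7 scaffold genes, App, Xist, up to 3 genes of each list with the smallest unadjusted p between the genotypes, and the 10 most and 5 least alike in pattern. Some genes this rule takes are not reported here. The 7 genes and the lists were chosen with earlier results of these data known. Positions and exon lengths are from GENCODE M21 on GRCm38, and promoters from RefSeq on GRCm38.p6.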

Additional observations from a re-analysis of the deposited data

Results flagged for a closer look

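In 2 of 34 groups of values that were examined, a mouse stood farther from the others than Dixon's critical value allows, which by chance occurs in about 1 of 20 groups. Shank2 in Wt mice was 244.2 CPM in mouse 41, against a median of 159.4 CPM, and its gap to the nearest mouse took 0.733 of the whole range (critical value 0.710). Xist in mice labelled male was 198.9 CPM in the same mouse, against a median of 0.0505 CPM, with a gap of 0.9997 of the range. The part of mouse 41's sex label, or of its section, in the Shank2 value was not tested.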

How the results depend on the processing

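All 154 alternative log2 fold changes of the 7 genes between Tg and Wt mice (22 settings for each) were below 0, with adjusted p between 0.188 (Shank2 in DESeq2) and 1.0 and none under 0.1. The genes were named through a table ordered by this contrast in the same mice, so the shared sign is a description. The settings share most of their mice, and the fit without a filter repeats the main fit. The median of the 7 genes, -0.26, was -0.14 with the oligodendrocyte score, and -0.33 to -0.19 with each mouse left out. The cause of the shift was not tested.

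Counts of genes past the threshold depended on the tool. In DESeq2 they were 56 between Tg and Wt, 175 between the sexes, 24 between batches and 17 for the interaction, in place of 1, 0, 0 and 0 in edgeR. Between Tg and Wt the count was 2 with a filter of 1 CPM in all mice, 2 with the choroid plexus score, 2 with the oligodendrocyte score and 0 in batch 1 alone. Leaving out each mouse gave 1 to 2 genes between Tg and Wt (2 without mouse 93), 0 to 540 between the sexes (540 without mouse 95, 1 without mouse 41), 0 to 0 between batches, and 0 to 1 for the interaction (1 without mouse 32 and 1 without mouse 95). The causes were not tested.

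The median r of 0.344 among pairs of the 7 genes was 0.298 to 0.516 with each mouse left out and 0.692 in batch 1 alone, alternatives chosen after seeing the data. Mean levels of the 7 genes differed by less than their SD with DESeq2 size factors. No paired analysis was possible because the mouse numbers are not shared between the genotypes. With 5 against 7 mice, spread between mice limits these comparisons more than depth does.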
